A study of Mus musculus with 4 samples.

Results

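The genes described here encode ion channels and ion pumps of the sperm plasma membrane, taken as a list of 10 gene symbols that was looked up in a table of 26068 named gene entries. The list holds the pore subunits Catsper1, Catsper2, Catsper3 and Catsper4, the CatSper auxiliary subunit Catsperb, the potassium channel Kcnu1 with its partner Lrrc52, the sodium pump Atp1a4, the calcium pump Atp2b4 and the proton channel Hvcn1. All 10 were found, each as a single entry, and all 10 reached the minimum level for testing, a mean of 1 RPKM (reads adjusted for the length of the gene and the depth of the library). RNA was sequenced from the whole testes of males 24 days old, all of the hybrid strain B6D2F1. Wild type mice gave 2 libraries and mice homozygous for the Adad2 knockout gave 2, with no other treatment or allele named in the labels. Adad2 is a germ cell gene whose product binds double-stranded RNA and carries a deaminase-like domain. The labels do not describe the deleted segment, and they do not say whether the replicates were separate animals, so p-values reflect how these samples varied, which may be technical variation.

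CatSper is the calcium channel of the sperm tail. Its pore is built from 4 different subunits, and a set of auxiliary proteins surrounds it, several of which are needed for the channel to reach the flagellum. Calcium entering through CatSper drives the strong, asymmetric tail beat called hyperactivation, and alkaline pH opens the channel. A sperm potassium channel sets the membrane potential, pumps hold the sodium and calcium gradients, and proton and sodium-proton transport set the pH inside the cell. Male germ cells transcribe these genes at different steps of meiosis and spermatid differentiation, before mature sperm exist.

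Of the 10 genes, 6 were lower in the knockout, 0 were higher (1 at an unadjusted p under 0.05) and 4 were not past the threshold (limma, Benjamini-Hochberg adjusted p under 0.05). The lower genes were Catsper1, Catsper3, Catsper4, Kcnu1, Lrrc52 and Atp1a4, at 13.4% to 41.0% of the wild type level. Catsper2, Catsperb, Atp2b4 and Hvcn1 were at 92.2% to 125% of it. The median log2 change of the 10 genes was -1.63. Of 13414 genes tested, 7.15% were called lower and 1.22% higher, and their median log2 change was 0.14. Both knockout libraries lay below both wild type libraries in 6 of the 10 genes, against 16.8% of all genes tested. The knockout libraries lay above in 1 of the 10, against 46.4% of all genes tested. The list was drawn up with earlier results of these libraries known, so its counts describe these genes and are not independent evidence.

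**Figure D1:**
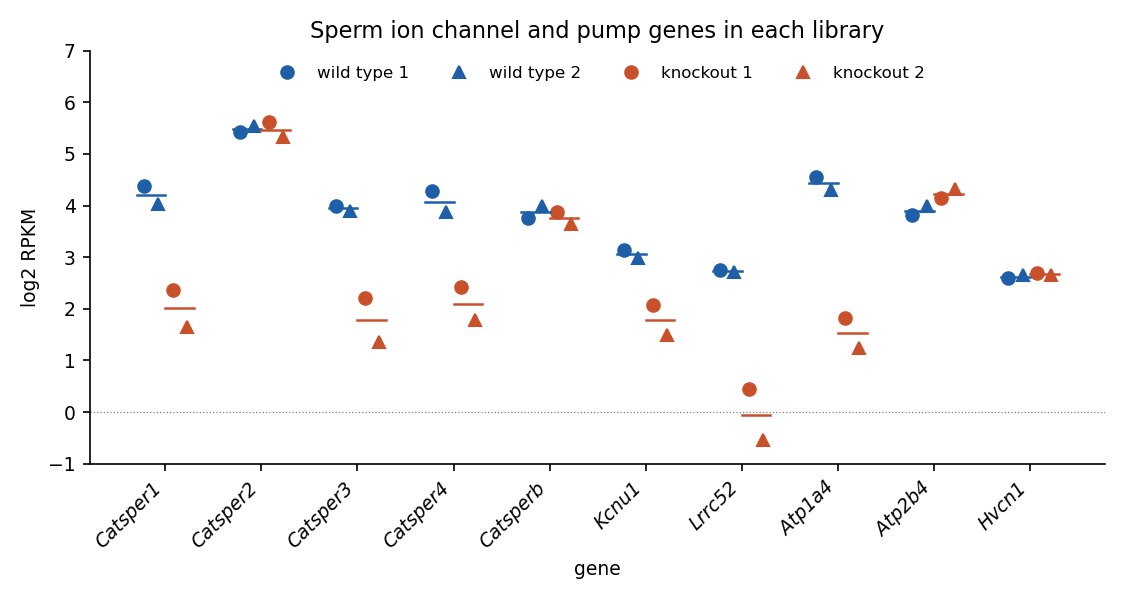
Level of each of the 10 genes in log2 RPKM (vertical axis) in each library, with circles for replicate 1, triangles for replicate 2, blue for wild type, orange for knockout, and short lines for group means. The knockout points of Catsper1, Catsper3, Catsper4, Kcnu1, Lrrc52 and Atp1a4 lie below their wild type points, while those of Catsper2, Catsperb and Hvcn1 overlap them.

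The depth of the libraries was about 30250000 and 36900000 reads in wild type replicates 1 and 2 and 32950000 and 29450000 reads in knockout replicates 1 and 2, estimated from the value of a single read. A read in a gene of 1 kb was then worth 0.0271 to 0.034 RPKM. Adad2 fell from 25.2 and 22.2 RPKM in wild type to 13.2 and 9.86 RPKM in the knockout (adjusted p = 0.00604), so transcript was still counted there. Knockout replicate 2 was below knockout replicate 1 in 6 of the 6 lower genes. Their SD on the log2 scale was 0.40 to 0.70 between the knockout libraries and 0.03 to 0.29 between the wild type libraries (n = 2 each). A group left with 1 library lends no spread, so the spread then comes from the other group alone. In limma the spread of each gene is also drawn towards a value fitted over all genes tested. The counts below follow which pair supplies the spread and this shared value, not the spread of a lower gene by itself. They do not measure how far the changes depend on a library. With wild type replicate 1 left out, 0 of the 10 genes and 0 of all genes tested were past the threshold, although 6 of the 10 kept an unadjusted p under 0.05 (limma). With wild type replicate 2 left out, Atp1a4 was the 1 gene of the 10 past it. With either knockout library left out, the count was 6.

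Catsper1, the pore subunit whose histidine-rich end is linked to pH sensing, measured 20.8 and 16.4 RPKM in the wild type libraries and 5.15 and 3.15 RPKM in the knockout libraries. Every knockout value was below every wild type value. On the log2 scale the means were 4.21 ± 0.24 and 2.01 ± 0.50 (SD, n = 2 each), a change of -2.20 (SE 0.27, 95% confidence interval -2.89 to -1.503, limma adjusted p = 0.00993), or 4.58-fold lower. In mm9, Catsper1 occupies chromosome 19 from 5335741 to 5344153, plus strand (ENSMUSG00000038498). Catsper3, another pore subunit, measured 16.0 and 14.97 RPKM in wild type and 4.64 and 2.57 RPKM in the knockout. It was 4.48-fold lower, with a log2 change of -2.16 (SE 0.30, 95% confidence interval -2.95 to -1.38, limma adjusted p = 0.0182). The gene occupies chromosome 13 from 55885929 to 55910359, plus strand (ENSMUSG00000021499). Catsper4, a further pore subunit, measured 19.4 and 14.6 RPKM in wild type and 5.33 and 3.44 RPKM in the knockout, 3.93-fold lower (log2 change -1.98, SE 0.25, 95% confidence interval -2.62 to -1.33, limma adjusted p = 0.0103). It occupies chromosome 4 from 133767885 to 133783298, minus strand (ENSMUSG00000048003). The changes of these 3 pore genes ranged from -2.20 to -1.98, with overlapping intervals. Without wild type replicate 1 or 2 the adjusted p was 0.0838 or 0.0525 for Catsper1, 0.1 or 0.0767 for Catsper3, and 0.0883 or 0.0513 for Catsper4.

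Catsper2, the remaining pore subunit, did not follow them. It measured 43.2 and 46.4 RPKM in the wild type libraries and 49.4 and 39.98 RPKM in the knockout libraries. The wild type values lay between the knockout values. The log2 change was -0.01 (SE 0.13, 95% confidence interval -0.31 to 0.29, limma adjusted p = 0.961), and its sign turned when wild type replicate 2 or knockout replicate 2 was left out. Catsper2 was the highest of the 10 genes per length in both groups, at a geometric mean of 44.7 and 44.4 RPKM. It lies on the minus strand of chromosome 2 from 121218367 to 121240317 (ENSMUSG00000033486). Its span overlaps that of Pdia3, a protein disulfide isomerase gene on the other strand, by 807 bases. In the Gencode M21 models the exons of the genes share 18 bases, 0.487% of the Catsper2 exon length. Those models are of another build and may differ from the ones used for counting, and the part of Pdia3 reads in the Catsper2 values was not tested.

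The ratio of pore transcripts within a library does not depend on how libraries were scaled. Catsper2 stood at 2.08 and 2.83 times the Catsper1 RPKM in the wild type libraries and at 9.59 and 12.7 times in the knockout libraries. The groups did not overlap in this ratio, which follows from the fall of Catsper1 with Catsper2 near its wild type level. It is not a further result, and the share of gene pairs that part in this way was not computed. Catsper3 stood at 0.769 and 0.914 times Catsper1 in wild type and at 0.9 and 0.817 times in the knockout, and here the groups overlapped. Catsper4 stood at 0.932 and 0.894 times Catsper1 in wild type and 1.03 and 1.09 times in the knockout. In this ratio, too, the groups did not overlap. With 2 libraries a group, the smallest two-sided p of an exact permutation test is 0.333, so no test was made on these ratios.

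Catsperb encodes a large auxiliary subunit with an extracellular domain. It measured 13.6 and 15.9 RPKM in wild type and 14.6 and 12.5 RPKM in the knockout, with overlapping groups. The log2 change was -0.12 (SE 0.13, 95% confidence interval -0.41 to 0.17, limma adjusted p = 0.538). Its ratio to Catsper1 was 0.652 and 0.968 in wild type and 2.84 and 3.97 in the knockout. That rise follows from the fall of Catsper1. Catsperb occupies chromosome 12 from 102642883 to 102864219, plus strand (ENSMUSG00000047014).

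Of 16 genes of the CatSper complex, the 5 listed and 11 others named from knowledge of the channel, 11 were matched in the table and all 11 were tested. Of these, 4 were lower and 7 were not past the threshold, beside 7.15% of all genes called lower. The fourth lower gene was Efcab9, a calcium-binding protein that works with the channel in pH-dependent gating. Efcab9 measured 30.3 and 28.9 RPKM in wild type and 10.6 and 7.26 RPKM in the knockout. Its log2 change was -1.75 (SE 0.18, limma adjusted p = 0.00211), or 3.37-fold lower. With wild type replicate 1 or 2 left out the adjusted p was 0.0752 or 0.0552. The auxiliary genes Catsperg1, Catsperg2 and Catsperd had log2 changes of 0.18, 0.27 and 0.09. For C2cd6, involved in carrying the channel to the tail, the value was -0.10, and for Slco6c1, a transporter-like protein of the complex, it was -0.11. Catsperg2 measured 27.8 and 25.5 RPKM in wild type and 39.0 and 26.6 RPKM in the knockout (limma adjusted p = 0.348). Its change was -0.0014 without knockout replicate 1 and 0.55 without knockout replicate 2 (adjusted p = 0.0191), so it depended on which knockout library was used. Catsperg1 and Catsperg2 are close relatives and may share reads. The lower genes changed by -2.20 to -1.75 and the others by -0.12 to 0.27, with no gene of the 11 in between. The lower confidence bounds of the 7 others reached -0.41 at most, and their upper bounds reached 0.72 at most.

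**Figure D2:**
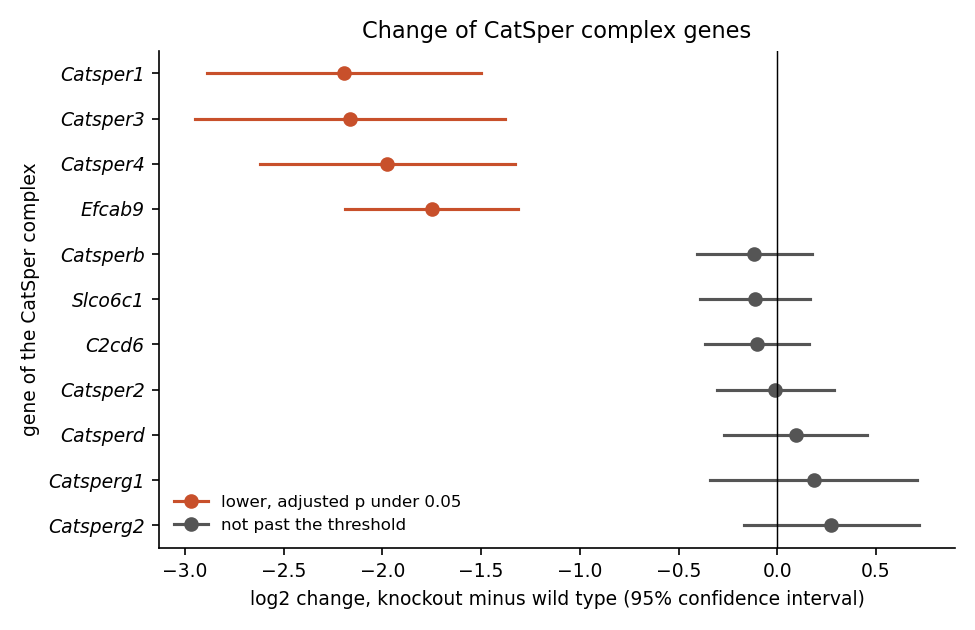
Log2 change between knockout and wild type (horizontal axis) with its 95% confidence interval from limma for 11 genes of the CatSper complex, in order of the change. Catsper1, Catsper3, Catsper4 and Efcab9 lie between -2.20 and -1.75. The other 7 lie between -0.12 and 0.27, with interval bounds from -0.41 to 0.72.

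The promoter sequences of the CatSper genes are shown because genes of the same channel parted in the knockout. RefSeq windows of GRCm38.p6 covering 250 bases before the transcript start were matched for 7 of the 10 genes: Catsper2, Catsper3, Catsper4, Catsperb, Lrrc52, Atp1a4 and Atp2b4. The sequences below run 5′ to 3′ on the coding strand from 250 to 21 bases before the start. Capitals mark matches on either strand to TGACG, the core of the cAMP response element bound by CREM, to GTTGCNA, a sequence of the type bound by RFX factors, or to AACNGNC, a sequence of the type bound by MYB factors. Catsper3 and Catsper4 fell in the knockout, and Catsperb was not past the threshold.
Catsper3, plus strand, chr13:55784329-55784558: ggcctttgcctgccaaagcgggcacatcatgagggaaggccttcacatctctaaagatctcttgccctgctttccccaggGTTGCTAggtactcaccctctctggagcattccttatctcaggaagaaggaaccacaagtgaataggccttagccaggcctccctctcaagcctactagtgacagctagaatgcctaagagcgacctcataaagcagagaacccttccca
Catsper4, minus strand, chr4:134227404-134227633: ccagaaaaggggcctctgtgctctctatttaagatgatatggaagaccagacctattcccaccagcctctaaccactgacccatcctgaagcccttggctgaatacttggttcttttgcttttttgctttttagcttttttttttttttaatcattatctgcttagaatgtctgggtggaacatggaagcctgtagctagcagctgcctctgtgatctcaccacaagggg
Catsperb, plus strand, chr12:101404423-101404652: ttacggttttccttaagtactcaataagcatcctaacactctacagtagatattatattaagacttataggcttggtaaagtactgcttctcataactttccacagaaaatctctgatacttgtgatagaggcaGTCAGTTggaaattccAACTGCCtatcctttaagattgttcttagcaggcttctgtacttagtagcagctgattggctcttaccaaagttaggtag

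In the full windows Catsper3 held a GTTGCTA match 170 to 164 bases before its start, and Catsper4 held no match to any of the 3 sequences. Catsperb held 3 MYB-type matches, the closest of them 13 to 7 bases before the start and outside the stretch shown. Catsper2 held AACTGCC from 43 to 37 bases and CGTCA, the reverse complement of TGACG, from 77 to 73 bases before its start. Atp2b4 held 2 MYB-type matches, and Lrrc52 and Atp1a4 held no match to any of the 3. Over 32851 windows of this length, 17.8% held TGACG, 8.77% GTTGCNA and 27.7% AACNGNC on either strand. No match overlapped another in these windows. The windows with a MYB-type match were those of Catsper2, Catsperb and Atp2b4, none past the threshold, and the 4 windows of lower genes held none. This is a description of 7 windows, made after the changes were known, and a match of letters is not a binding site. The windows also differed in CpG content. Catsper2 held 35 CpG pairs, a count reached by 2.97% of all windows, while Catsper3 held 2, Catsper4 held 1, Catsperb held 1, Atp2b4 held 2, and Lrrc52 and Atp1a4 held 5 each, beside a median of 6. The CpG count therefore did not separate lower genes from the others. The Catsper2 window is not printed because Gencode M21 places the first exon of Pdia3 across it, and the RefSeq starts of the genes, on opposite strands, are 110 bases apart.

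Kcnu1 encodes the pore of the sperm potassium channel, and Lrrc52 encodes the leucine-rich repeat protein that shifts its gating and stabilises it. Kcnu1 measured 8.84 and 7.95 RPKM in wild type and 4.19 and 2.82 RPKM in the knockout. The groups did not overlap, and the gene was 2.44-fold lower (log2 change -1.29, SE 0.19, 95% confidence interval -1.75 to -0.82, limma adjusted p = 0.00869). It was the smallest of the 6 falls, and it missed the threshold without a filter on low values (adjusted p = 0.0503) and without wild type replicate 1 (0.158) or 2 (0.103). Lrrc52 measured 6.78 and 6.58 RPKM in wild type and 1.36 and 0.687 RPKM in the knockout. It was 6.90-fold lower (log2 change -2.79, SE 0.33, 95% confidence interval -3.61 to -1.96, limma adjusted p = 0.00617), and the adjusted p was 0.0883 or 0.0671 without wild type replicate 1 or 2. The knockout values of Lrrc52 stand for about 51.3 and 23.1 reads, against 234 and 277 in wild type, so the size of its fold is less certain than that of the other genes. Its knockout mean of 0.967 RPKM was below the filter, which the gene passed through its wild type level. Kcnu1 occupies chromosome 8 from 26960095 to 27048405, plus strand (ENSMUSG00000031576). Lrrc52 is on the minus strand of chromosome 1 from 169375806 to 169396911 (ENSMUSG00000040485).

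Within a library, Kcnu1 stood at 1.30 and 1.21 times the Lrrc52 RPKM in the wild type libraries and at 3.08 and 4.11 times in the knockout libraries, with no overlap between the groups. The confidence intervals of the changes, -1.75 to -0.82 for Kcnu1 and -3.61 to -1.96 for Lrrc52, did not overlap either, although the difference between the genes was not tested and rests on the few Lrrc52 reads of the knockout. Of 10 other potassium channel genes and Lrrc relatives, 0 reached the filter. They ranged from 0.0205 to 0.957 RPKM over the libraries, the highest being Kcnma1, the closest relative of Kcnu1, at 0.744 and 0.723 RPKM in wild type and 0.957 and 0.942 RPKM in the knockout.

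Atp1a4 encodes the catalytic subunit of the sodium pump made in male germ cells and needed for sperm motility. It measured 23.5 and 19.8 RPKM in wild type and 3.54 and 2.35 RPKM in the knockout. This was the largest fall among the 10 genes, 7.48-fold (log2 change -2.90, SE 0.21, 95% confidence interval -3.43 to -2.38, limma adjusted p = 0.000937). Per length it went from rank 2 to rank 9 among the 10 genes. With wild type replicate 1 left out the adjusted p was 0.0535. Atp1a4 is on the minus strand of chromosome 1 from 174153644 to 174188545 (ENSMUSG00000007107).

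Of 9 sodium pump genes other than Atp1a4, 7 were tested, 0 were lower and 1 was higher, beside 1.22% of all genes called higher, with a median change of 0.29. The higher gene was Fxyd1, a small regulator of the pump, at 7.70 and 7.11 RPKM in wild type and 10.02 and 9.91 RPKM in the knockout (log2 change 0.43, SE 0.10, limma adjusted p = 0.0409). Its call was lost in 5 of 11 alternatives, with an adjusted p of 0.102 without a filter, 0.0889 without trend and robust estimation, and 0.0520, 0.163 and 0.195 without knockout replicate 1, wild type replicate 1 and wild type replicate 2. Atp1b2, a beta subunit, measured 16.0 and 13.5 RPKM in wild type and 19.4 and 18.6 RPKM in the knockout (log2 change 0.37, limma adjusted p = 0.101). Atp1b3, another beta subunit, measured 34.9 and 38.2 RPKM in wild type and 31.4 and 32.8 RPKM in the knockout. Its log2 change was -0.185 (limma adjusted p = 0.273), the 1 change below 0 among the 7 tested.

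Atp2b4 encodes the main calcium pump of the sperm plasma membrane, which pumps calcium out and is also made in somatic cells. It measured 14.1 and 15.9 RPKM in wild type and 17.6 and 19.9 RPKM in the knockout. Both knockout values lay above both wild type values, as in 46.4% of all genes tested. The log2 change was 0.32 (SE 0.12, 95% confidence interval 0.06 to 0.59, limma adjusted p = 0.132), a value not past the threshold, beside a median of 0.14 over all genes. Atp2b4 is on the minus strand of chromosome 1 from 135599255 to 135697618 (ENSMUSG00000026463). Its relative Atp2b1 measured 4.59 and 4.003 RPKM in wild type and 5.18 and 5.94 RPKM in the knockout (log2 change 0.37, limma adjusted p = 0.133). Atp2b2 and Atp2b3 were under the filter. Of 10 other genes of calcium pumping and exchange, 3 were tested and 0 were past the threshold by limma (1 had an unadjusted p under 0.05, Atp2b1). The others were Atp2a2, the pump of the endoplasmic reticulum, with a change of 0.14, and Atp2c1, the pump of the Golgi, with 0.08.

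**Figure D3:**
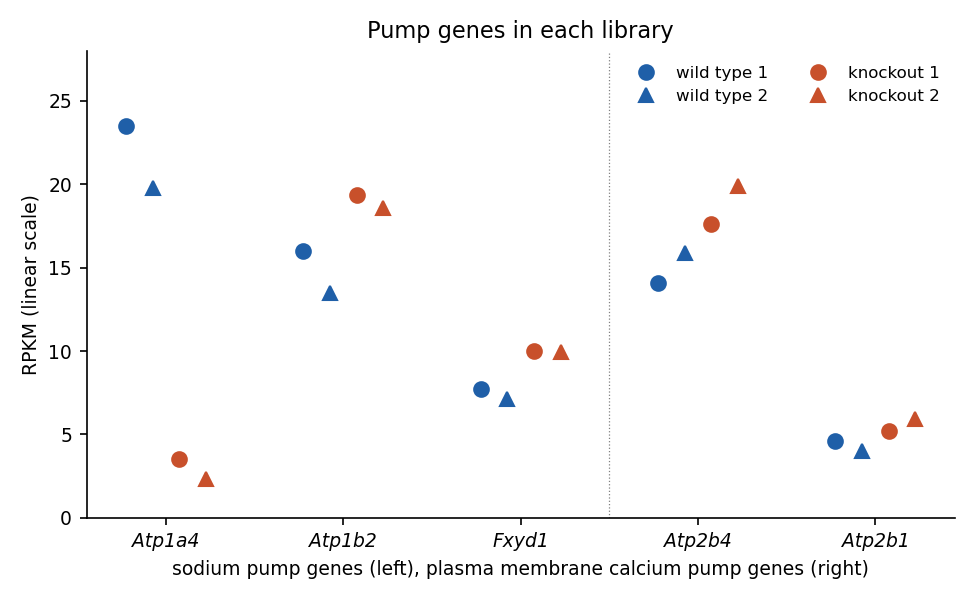
RPKM on a linear scale (vertical axis) of sodium pump genes and plasma membrane calcium pump genes in each library, with symbols as in the plot of the 10 genes. Atp1a4 goes from 23.5 and 19.8 RPKM to 3.54 and 2.35 RPKM. Atp1b2, Fxyd1, Atp2b4 and Atp2b1 show knockout values above wild type values, as in 46.4% of all genes tested. The beta subunit gene Atp1b3, not plotted, went the other way.

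Hvcn1 encodes a voltage-gated proton channel that lets protons leave the cell, and it is also known from immune cells. It measured 6.03 and 6.31 RPKM in wild type and 6.46 and 6.30 RPKM in the knockout, with overlapping groups. The log2 change was 0.05 (SE 0.11, 95% confidence interval -0.20 to 0.30, limma adjusted p = 0.768). Hvcn1 occupies chromosome 5 from 122656813 to 122692306, plus strand (ENSMUSG00000064267). Its span overlaps that of Tctn1, a cilium gene on the other strand, by 1011 bases in mm9. In the Gencode M21 models, of another build, 1574 exon bases are shared with Tctn1, 44.2% of the Hvcn1 exon length. That is more than the mm9 spans overlap, so this share does not hold for the spans given with the deposited values. On the log2 RPKM scale Tctn1 measured 3.30 and 3.29 in wild type and 3.38 and 3.29 in the knockout. No source used here gives the use of strand in counting, so reads of Hvcn1 and Tctn1 cannot be told apart in the shared stretch.

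Other genes of proton and anion transport gave 1 lower gene and 0 higher among 10 tested of 13, near the 7.15% of all genes called lower, with a median change of 0.00. The lower gene was Slc22a14, a transporter of the sperm tail, at 35.3 and 29.2 RPKM in wild type and 11.6 and 8.45 RPKM in the knockout (log2 change -1.70, SE 0.18, limma adjusted p = 0.00196). With wild type replicate 1 left out the adjusted p was 0.0729. Slc9c1, the sperm sodium-proton exchanger, measured 21.6 and 23.4 RPKM in wild type and 24.4 and 19.3 RPKM in the knockout (log2 change -0.05, limma adjusted p = 0.795). Slc26a8, a testis anion transporter, had a change of 0.10 and Slc9b1, another exchanger of the sperm tail, 0.06. For the anion exchanger Slc4a2 the change was 0.24 (limma adjusted p = 0.184).

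Channels with other reported roles in sperm or testis gave 1 lower and 0 higher among 12 tested of 20, near the 7.15% of all genes called lower, with a median change of 0.10. The lower gene was Best1, a calcium-activated chloride channel. Best1 measured 31.3 and 23.8 RPKM in wild type and 8.02 and 4.61 RPKM in the knockout, a log2 change of -2.17 (SE 0.31, limma adjusted p = 0.0259), or 4.49-fold. With wild type replicate 1 or 2 left out the adjusted p was 0.1 or 0.0571. Itpr1, a calcium release channel, and Pkd2, a polycystin channel, had changes of 0.18 and 0.24, and neither was past the threshold. Over all 74 other channel and transport genes, 69 were in the table, 39 were tested, 3 were lower and 1 was higher, with a median change of 0.10 beside 0.14 over all genes. These counts are near the shares over all genes, 7.15% lower and 1.22% higher. The 3 lower genes were Efcab9, Slc22a14 and Best1. Abhd2, a lipid hydrolase that relieves block of CatSper, measured 5.35 and 5.44 RPKM in wild type and 4.15 and 4.35 RPKM in the knockout (log2 change -0.35, limma adjusted p = 0.117).

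Markers of spermatids moved in the same libraries, where 7.15% of all genes tested were called lower. Of 12 elongating spermatid markers, 11 were lower and 0 higher, with a median log2 change of -2.42, and their summed RPKM was 1135 and 1069 in wild type and 158 and 98.1 in the knockout. Of 12 round spermatid markers, 8 were lower and 0 higher, with a median of -1.67, and their sum was 578 and 535 in wild type and 320 and 258 in the knockout. Of 12 spermatocyte markers, 1 was lower, near the share over all genes, and 0 were higher. Their median was 0.13, and their sum was 1746 and 2017 in wild type and 1965 and 1833 in the knockout. Catsper2, Catsperb, Hvcn1 and Atp2b4, with changes of -0.12 to 0.32, lay within the range of the spermatocyte markers, -0.62 to 0.42. They also lay within that of the Leydig cell markers, -0.16 to 0.33, and the median over all genes was 0.14. Closeness to 0 is therefore not particular to spermatocyte markers. The 6 lower genes, with changes of -2.90 to -1.29, lay below both ranges. The round spermatid markers ranged from -2.58 to -0.07 and the elongating spermatid markers from -5.39 to -1.72. Joined, these ranges take in any fall from -0.07 to -5.39, so lying within them does not place the 6 genes in a cell type. Catsperb lay within the range of the round spermatid markers as well. Whole-testis RNA cannot tell fewer cells of a type from less RNA per cell, and the part of spermatid numbers in these changes was not tested.

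The 6 lower genes were also set against the round spermatid markers of the same library. Atp1a4 stood at 0.504 and 0.487 times the median RPKM of the 12 round spermatid markers in wild type and at 0.23 and 0.219 times in the knockout. Lrrc52 stood at 0.145 and 0.162 times in wild type and at 0.0884 and 0.064 times in the knockout, and Catsper1 at 0.446 and 0.403 against 0.335 and 0.293 times. The ratios of Catsper3 were 0.343 and 0.369 in wild type and 0.301 and 0.239 in the knockout, and those of Catsper4 were 0.415 and 0.36 in wild type and 0.346 and 0.321 in the knockout. Kcnu1 moved the other way, from 0.189 and 0.196 times in wild type to 0.272 and 0.263 times in the knockout. In each of these ratios the groups did not overlap. The same was true of Catsper2, Catsperb, Atp2b4 and Hvcn1, whose ratios were higher in the knockout. The round spermatid markers themselves fell, with a median log2 change of -1.67. A gene that fell less, such as Kcnu1 at -1.29, or stayed near its wild type level therefore has a higher ratio by construction. The separation of such genes is not a further result. The share of all genes with such a separation was not computed for the ratios. On the plain values, which are another measure, both knockout libraries lay below both wild type libraries in 16.8% of all genes tested and above in 46.4%. The ratios and the differences between genes carry no test, and 4 of the 12 round spermatid markers were themselves not past the threshold.

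**Figure D4:**
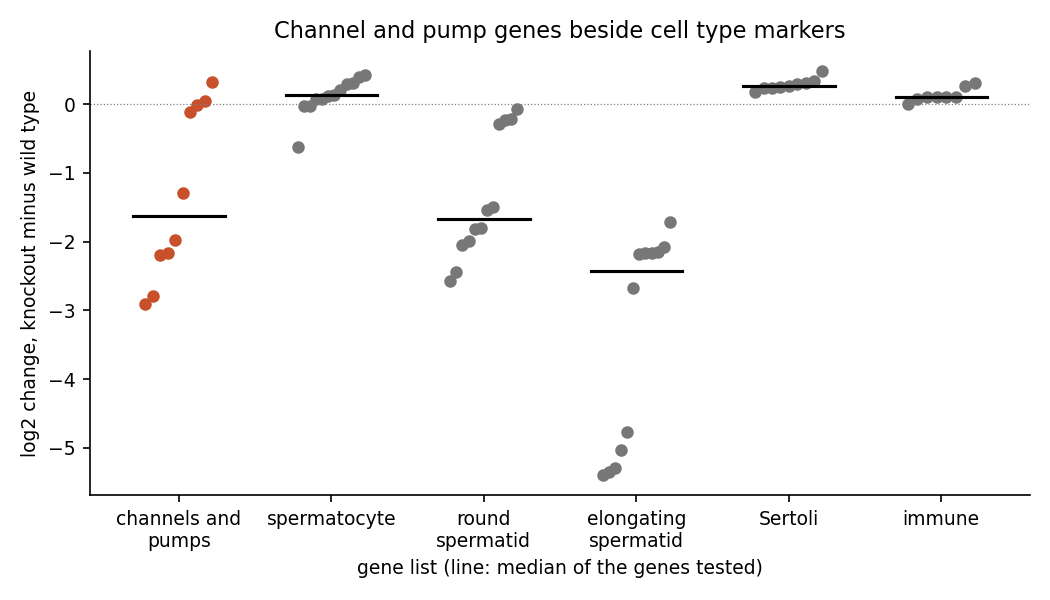
Log2 change between knockout and wild type (vertical axis) of each tested gene in the list of 10 channels and pumps and in lists of cell type markers, with a line at each median. The channel and pump genes fall into a group near 0 and a group from -2.90 to -1.29. The spermatocyte, Sertoli and immune markers also lie near 0, and most spermatid markers lie in the range of the lower group.

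Of the markers of somatic cells, 0 were past the threshold. Sertoli cell markers, of which 9 were tested, had a median change of 0.27, with 6 at an unadjusted limma p under 0.05, beside a median of 0.14 and 3616 of 13414 over all genes tested. Leydig, peritubular and endothelial, and immune markers had medians of 0.19, 0.23 and 0.11, with 1, 1 and 0 at an unadjusted p under 0.05. Hvcn1 and Atp2b4 are made in immune and other somatic cells too. The immune markers summed to 42.2 and 47.9 RPKM in wild type and 48.3 and 49.9 RPKM in the knockout, and 4 of the 12 were under 1 RPKM in each library, among them the B cell marker Cd79a and the T cell marker Cd3e. Of the markers made by macrophages, Lyz2 measured 12.1 and 16.0 RPKM in wild type and 15.6 and 14.5 RPKM in the knockout, and C1qa 7.73 and 10.1 against 8.96 and 10.1 RPKM. Their part in the values of Hvcn1 and Atp2b4 was not tested. Haemoglobin and other red cell markers summed to 106 RPKM in wild type replicate 1, against 38.5 to 50.5 RPKM in the other libraries.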

How the data were processed

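RNA from whole testes was made into libraries with a TruSeq kit, per the labels' protocols. Reads passed through bcl2fastq 2.17.1.14 and Bowtie2 with the mm9 genome, per the submitters' processing notes. The counting tool, annotation, strand use and filters were not given in the sources used. The authors deposited log2 RPKM values for 26127 entries; 59 of them (0.23%) had no gene name and were dropped. Columns were matched to samples by group name and number. The table gives no counts. Depth was estimated from single-exon genes, whose values between 1.5 and 10 reads were whole within 0.05 of a read in 100% of 62 to 85 values per library. Reads per gene used Gencode M21 exon lengths, on another build.

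Genes with a mean of at least 0 on the log2 scale (1 RPKM) entered limma 3.58.1 (R 4.3.3, statmod 1.5.0, trend and robust estimation) as an unpaired, two-sided test, and p-values of the 13414 genes were adjusted by Benjamini-Hochberg. Named genes were the 10 members, Adad2, pump and channel paralogs, and in each other list up to 4 called genes, filled to 3 by smallest p; other genes named were chosen after their values were seen, and some genes that the rule names are not reported here. Members and lists were chosen with earlier results of these data known. In simulated data with 13414 genes and 200 changed, the same code recovered 14.9%, 83.6% and 97.0% of changes of 0.5, 1 and 2 on the log2 scale, with 8 false calls. The simulated spread was equal in both groups, while that of the lower genes was wider between the knockout libraries. Recovery and false calls in these data may therefore differ. Alternatives were other filters, log2(RPKM + 1), other normalizations and variance models, a replicate block and each library left out.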

Additional observations from a re-analysis of the deposited data

How the results depend on the processing

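The 6 lower genes kept their direction in all 11 alternatives that tested them. Leaving out a library gave 0 to 6 lower and 0 higher among the 10, and 0 to 3 lower and 0 to 3 higher among the 39 other channel and transport genes. Over all genes it gave 0 to 1308 lower and 0 to 494 higher. A group left with a lone library was given a spread that limma estimated from the other group and partly shared over genes. The counts of 0 came without wild type replicate 1, where 1277 genes lower and 1080 higher had an unadjusted p under 0.05.

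With the replicate number as a block, limma called 6 lower and 1 higher of the 10, the higher one being Atp2b4 (adjusted p = 0.0201), 5 lower and 3 higher of the other channel genes, and 1477 lower and 1837 higher of all genes. The labels do not say that the numbers mark pairs. The deviations of same-numbered libraries from their group means correlated at r = 0.331 across genes, and with 2 pairs this does not establish pairing. A filter at 4 RPKM gave 637 lower genes in all and left Lrrc52 untested, and no filter gave 97 higher. Higher calls among the other channel genes were 0 without a filter and 0 without trend and robust estimation. Signs turned with a library left out for Catsper2 (-0.16 to 0.14), Catsperg2 (-0.0014 to 0.55) and Atp2a2 (-0.0218 to 0.30). The cause was not tested. Depth limits mainly Lrrc52 in the knockout.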

Other observations

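Catsper3 has a head-to-head neighbour, the antisense clone gene 4930451E10Rik, whose first exon lies inside the Catsper3 window printed above. It measured 1.52 and 1.10 log2 RPKM in wild type and 0.47 and -0.14 log2 RPKM in the knockout (log2 change -1.15, limma adjusted p = 0.0321). Pdia3, the head-to-head neighbour of Catsper2, measured 6.51 and 6.65 log2 RPKM in wild type and 6.58 and 6.65 log2 RPKM in the knockout (log2 change 0.03, limma adjusted p = 0.846). Both neighbours were chosen after their values were seen, and neighbours of the other listed genes are not given. Of all genes tested, 7.15% were called lower. Whether neighbours change together was not tested.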
